A study of Mus musculus with 6 samples.

Results

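Interleukin 6 (IL-6) signals through a receptor, a small set of kinases and a transcription factor, and 10 mouse genes of that route were followed here in CD11b+ spleen cells: the ligand gene Il6, the receptor genes Il6ra and Il6st, the kinase genes Jak1, Jak2 and Tyk2, the transcription factor gene Stat3, and Socs3, Ptpn11 and Pim1, which act downstream. They were chosen by name out of 43432 genes in the table, and each symbol matched 1 Ensembl gene. The spleens came from Rag1 KO mice of strain C57BL/6J on day 8 after a cell transfer, and the RNA of the sorted cells was sequenced in bulk. In the WT iGB6 group (3 mice), the recipients were given wild-type B cells grown in the iGB culture and transduced with a pMSCV retroviral construct that holds the Il6 gene and enhanced GFP. The IgHMOG iGBGFP group (3 mice) received other B cells: the transferred B cells were of IgHMOG genotype and carried the empty pMSCV vector. In both groups the B cells were loaded with MOG protein and given together with unmanipulated 2D2 CD4+ T cells, and the recipients, being Rag1 KO, cannot make mature T cells or B cells but keep innate cells such as NK cells. B cell genotype and vector differ together between the groups and cannot be told apart. Each group held 1 female (replicate 1) and 2 males (replicates 2 and 3), and the ages of the mice are not in the labels.

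IL-6 binds the alpha chain IL-6R, and the pair engages gp130, the chain that carries the signal into the cell and that is shared with other cytokines of the family. Kinases bound to gp130 (JAK1, JAK2 and TYK2) then phosphorylate STAT3, which moves to the nucleus and switches on genes, among them Socs3, whose product binds gp130 and the kinases and damps the signal. The phosphatase SHP2, made from Ptpn11, docks at the same site on gp130 as SOCS3 and links the receptor to the RAS and MAP kinase route. In myeloid cells STAT3 is known for its part in neutrophil production, and SOCS3 for limiting responses to IL-6 and G-CSF.

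Library depth ran from 5955142 to 7564254 reads in WT iGB6 and from 5196339 to 6611212 reads in IgHMOG iGBGFP. The CD11b chain gene Itgam stood at 10809 ± 1419 normalized counts in WT iGB6 and 7865 ± 2374 in IgHMOG iGBGFP (SD, n = 3 mice each), so the marker of the sort was present in both. Marker genes of B cells summed to between 51.7 and 90.0 normalized counts per library in WT iGB6 and between 76.7 and 129 in IgHMOG iGBGFP, mostly from Cd79b, and Pax5 was listed at 0 in every WT iGB6 library. Markers of T cells summed to between 96.3 and 144 in WT iGB6 and between 200 and 235 in IgHMOG iGBGFP, and Cd3e was listed at 0 in every WT iGB6 library. Neutrophil precursor markers were higher in WT iGB6, where they held 0.142 to 0.367% of normalized counts, against 0.0397 to 0.0802% in IgHMOG iGBGFP.

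The comparison asks whether genes of the IL-6 route differed in the sorted cells between recipients of IL-6-carrying B cells and recipients of B cells with the empty vector. Il6ra, Socs3 and Pim1 fell in WT iGB6, none of the 10 genes rose, and Stat3 and Jak1, the genes with the highest levels per exon length, differed little between the groups. The test was limma on log2(normalized count + 1) with sex as a term, over genes that averaged 10 or more normalized counts, and p-values were adjusted by Benjamini-Hochberg over all 9923 genes tested, with a call at an adjusted p under 0.05. Of the 10 members, 9 passed the filter and Il6 did not. Of these 9, 3 were called lower, 0 were called higher and 6 were not called, against a background of 3.37% of all tested genes called lower and 2.75% called higher. The median log2 fold change of the 9 was -0.63, beside 0.02 over all tested genes. In bulk RNA, fewer cells of a type and less RNA per cell cannot be told apart. At an unadjusted p under 0.05, 5 members were lower and 0 higher, beside 12.3% of all tested genes lower and 12.3% higher. On recovered reads, edgeR called 2 members lower (background 3.55%) and 0 higher (2.56%), and DESeq2 called 3 lower (background 5.33%) and 0 higher (4.25%).

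**Figure D1:**
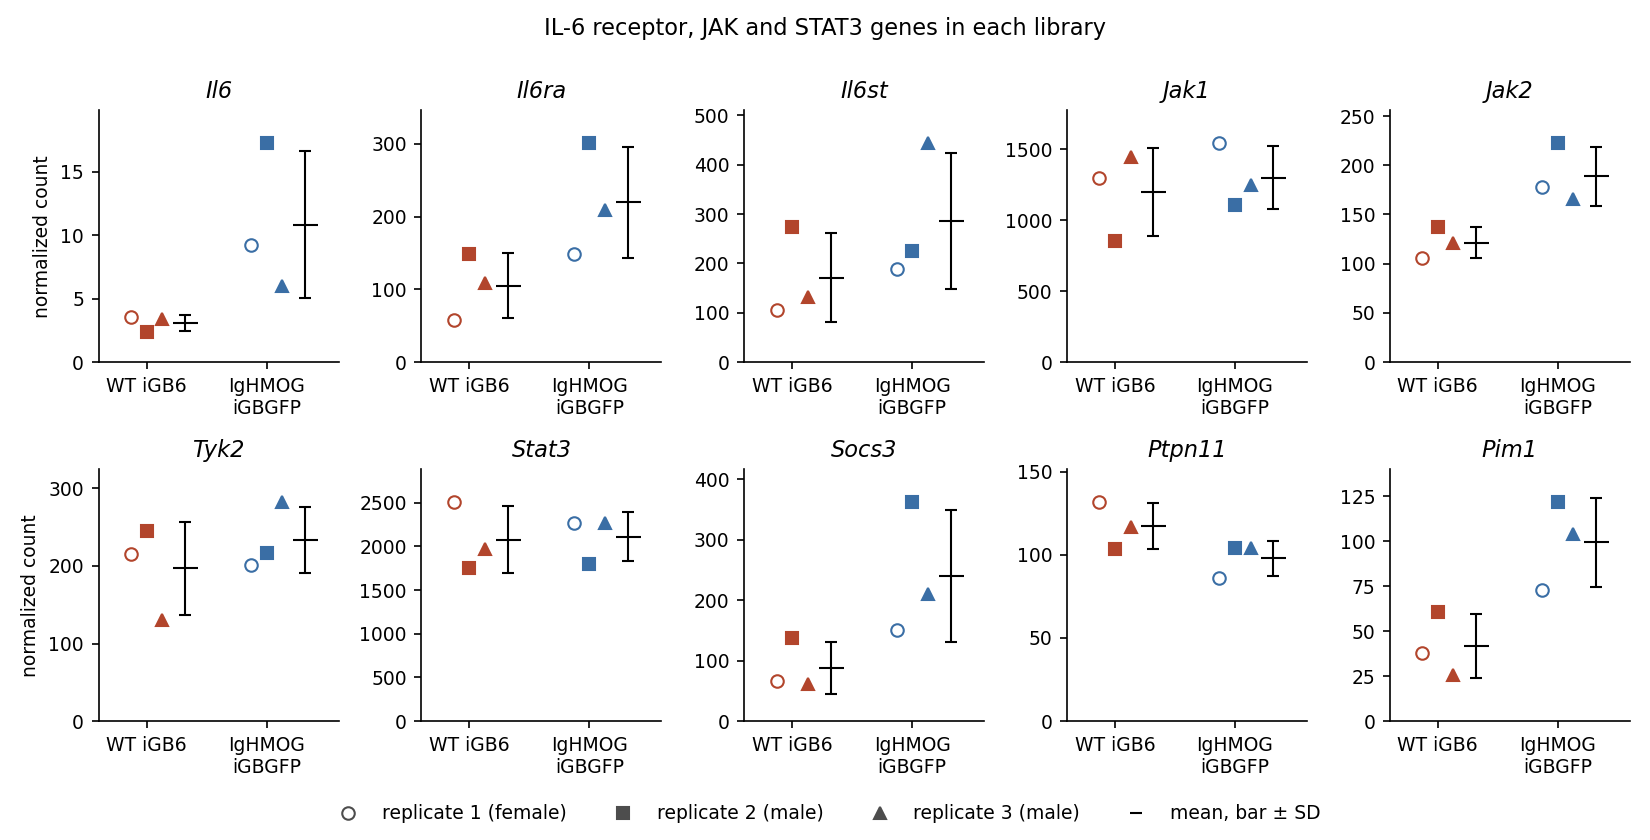
Normalized counts (y axis, from 0, a scale for each gene) of the 10 genes in each library, WT iGB6 in red and IgHMOG iGBGFP in blue, with circles for replicate 1 (female), squares for replicate 2 and triangles for replicate 3 (males), and the mean ± SD of each group in black. Il6, Jak2, Socs3 and Pim1 have all WT iGB6 libraries under all IgHMOG iGBGFP libraries, while Stat3, Jak1 and Tyk2 overlap widely.

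The ligand gene had few reads in every library. Il6 (ENSMUSG00000025746, GRCm38 chromosome 5, 30013114 to 30019981, plus strand) had 3 reads in each WT iGB6 library, against 9, 20 and 6 reads in IgHMOG iGBGFP replicates 1, 2 and 3. In normalized counts this came to 3.56, 2.37 and 3.37 in WT iGB6 and 9.21, 17.2 and 6.00 in IgHMOG iGBGFP. The groups did not overlap, with all 3 WT iGB6 libraries low and IgHMOG iGBGFP replicate 2 the highest, and the means were 3.10 ± 0.64 and 10.8 ± 5.80 (SD, n = 3 each). A two-sided exact permutation test of the means gave p = 0.1, the smallest that 3 against 3 mice allow. Counts this low carry a wide counting error. The count of the gene does not separate RNA of the mouse's own Il6 from RNA of the vector.

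The receptor's alpha chain gene, Il6ra, fell in WT iGB6. Il6ra (ENSMUSG00000027947, chromosome 3, 89864059 to 89913196, minus strand) had 58.1, 148 and 109 normalized counts in WT iGB6 replicates 1, 2 and 3, against 148, 301 and 209 in IgHMOG iGBGFP. Every WT iGB6 library was under the IgHMOG iGBGFP library of the same replicate number and sex, but the ranges touched: the highest WT iGB6 library (replicate 2, 188 reads) and the lowest IgHMOG iGBGFP library (replicate 1, 145 reads) had nearly equal normalized counts. The means were 105 ± 45.3 and 219 ± 76.9 (SD, n = 3 each), a log2 fold change of -1.09 (SE 0.23, limma adjusted p = 0.0292), or 46.8% of the IgHMOG iGBGFP level. Il6ra lost its call when sex was not a term (adjusted p = 0.163), in males alone (0.12), and without WT iGB6 replicate 1 (0.122) or IgHMOG iGBGFP replicate 1 (0.126), 2 (0.18) or 3 (0.0856), with log2 fold changes of -1.28 to -0.97 over all 19 alternatives. The alternatives are not 19 separate checks, for this gene or those below. Males alone and leaving out either female gave the same log2 fold change (-0.97). No filter, a minimum mean of 50, no sex term and replicate number as a block kept the main -1.09.

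Markers of other myeloid cells differed between the groups too, in both directions. Beside the counts of this paragraph, 3.37% of all tested genes were called lower and 2.75% higher. For basophils and mast cells, of 9 tested markers, 6 were called lower and 0 higher. Their summed normalized counts were 12605, 12070 and 13141 in WT iGB6 replicates 1, 2 and 3, against 20893, 22449 and 11055 in IgHMOG iGBGFP, and Hdc made up most of each sum. Dendritic cell markers summed to 98.4, 386 and 169 in WT iGB6, against 521, 987 and 1747 in IgHMOG iGBGFP, with 5 of 7 tested markers called lower. Of 7 non-classical monocyte markers, 4 were called lower, and their sums were 2772 to 4921 in WT iGB6 and 4883 to 7940 in IgHMOG iGBGFP. Classical monocyte markers had 3 of 7 called lower, yet their sums, 114207 to 167907 in WT iGB6 and 63862 to 104678 in IgHMOG iGBGFP, were higher in WT iGB6 without overlap. The median log2 fold change of these 7 markers was -0.72, with 5 of them below 0, so the sum and most of the markers differed in direction. Of 9 macrophage markers, 1 was called higher and 0 lower, and of 10 neutrophil markers 1 was called lower and 0 higher, with a median log2 fold change of 0.58. The part of these cells in the fall of Il6ra was not tested.

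The gp130 gene Il6st did not pass the test. Il6st (ENSMUSG00000021756, chromosome 13, 112464070 to 112510086, plus strand) had 106, 274 and 133 normalized counts in WT iGB6 replicates 1, 2 and 3, against 189, 224 and 444 in IgHMOG iGBGFP. WT iGB6 replicate 2 lay above 2 of the 3 IgHMOG iGBGFP libraries, and the other two WT iGB6 libraries lay under all of them. The log2 fold change was -0.76 (SE 0.31, limma adjusted p = 0.17), with a 95% interval of -1.46 to -0.06 before adjustment. Without WT iGB6 replicate 2 the log2 fold change of Il6st was -1.07 (limma adjusted p = 0.0158). In that fit 6.78% of all tested genes were called lower. It was the only 1 of 19 alternatives in which Il6st was called. The log2 fold change was -0.47 without WT iGB6 replicate 3 and -0.49 without IgHMOG iGBGFP replicate 3 (limma adjusted p = 0.375 and 0.441).

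Of the 3 kinase genes, none passed. Jak2 (ENSMUSG00000024789, chromosome 19, 29251828 to 29313080, plus strand) had 106, 137 and 121 normalized counts in WT iGB6 replicates 1, 2 and 3, against 178, 223 and 166 in IgHMOG iGBGFP. The groups did not overlap, and the log2 fold change was -0.63 (SE 0.21, limma adjusted p = 0.0968; 95% interval -1.09 to -0.17). With library weights in limma Jak2 was called lower (adjusted p = 0.0336), where 7.18% of all tested genes were. Jak1 (ENSMUSG00000028530, chromosome 4, 101152367 to 101265282, minus strand) averaged 1199 ± 307 in WT iGB6 and 1299 ± 223 in IgHMOG iGBGFP, with overlapping libraries and a log2 fold change of -0.14 (95% interval -0.60 to 0.33, limma adjusted p = 0.734). Its direction turned without WT iGB6 replicate 2 (0.063), and the difference was within the spread between mice. Tyk2 (ENSMUSG00000032175, chromosome 9, 21104068 to 21131243, minus strand) had 215, 245 and 130 normalized counts in WT iGB6, against 202, 216 and 282 in IgHMOG iGBGFP. WT iGB6 replicate 3 alone stood low for Tyk2, and without it the log2 fold change was 0.034, against -0.28 (SE 0.26, limma adjusted p = 0.557) with all libraries.

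Stat3, which encodes the transcription factor of the route, was near equal in the groups. Stat3 (ENSMUSG00000004040, chromosome 11, 100885098 to 100939540, minus strand) had 2505, 1756 and 1973 normalized counts in WT iGB6 replicates 1, 2 and 3, against 2272, 1794 and 2272 in IgHMOG iGBGFP. The highest and the lowest library were both in WT iGB6 and were 1.43-fold apart, the narrowest range of the 10 genes. The log2 fold change was -0.03 (SE 0.17, limma adjusted p = 0.935), with a 95% interval of -0.42 to 0.36, and with upper quartile scaling its sign turned (0.0068). The span of Stat3 overlaps that of Stat5a on the other strand, and since no source says that strand was kept, reads in any shared part could go to either gene.

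Socs3, the feedback inhibitor, had the lowest log2 fold change of the 9 tested genes. Socs3 (ENSMUSG00000053113, chromosome 11, 117966079 to 117970047, minus strand) had 66.4, 137 and 60.7 normalized counts in WT iGB6 replicates 1, 2 and 3, against 150, 362 and 210 in IgHMOG iGBGFP. The groups did not overlap, and replicate 2 was the highest in each. The means were 88.2 ± 42.7 and 241 ± 109 (SD, n = 3 each), a log2 fold change of -1.44 (SE 0.32, limma adjusted p = 0.0339), or 36.8% of the IgHMOG iGBGFP level. Socs3 lost its call when sex was not a term (adjusted p = 0.125), in males alone (0.0746), and without WT iGB6 replicate 1 (0.0761) or IgHMOG iGBGFP replicate 1 (0.077), 2 (0.212) or 3 (0.11), with log2 fold changes of -1.74 to -1.07 over all 19 alternatives.

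Pim1, a serine/threonine kinase gene that STAT3 and STAT5 are known to induce, fell as well, closer to the threshold. Pim1 (ENSMUSG00000024014, chromosome 17, 29490753 to 29496112, plus strand) had 37.9, 60.8 and 25.9 normalized counts in WT iGB6 replicates 1, 2 and 3, against 72.6, 122 and 104 in IgHMOG iGBGFP. The groups did not overlap, and the means were 41.5 ± 17.7 and 99.4 ± 24.8 (SD, n = 3 each), a log2 fold change of -1.29 (SE 0.33, limma adjusted p = 0.0478), or 40.9% of the IgHMOG iGBGFP level. The call of Pim1 was lost with TMM scaling (adjusted p = 0.0512), a minimum mean of 50 (0.0554), edgeR on recovered reads (just above 0.05), no sex term (0.125), males alone (0.0959), and without WT iGB6 replicate 1 (0.0959) or 3 (0.0566) or IgHMOG iGBGFP replicate 1 (0.0961), 2 (0.237) or 3 (0.156), and it stayed below 0 in all 19 alternatives. In the authors' deposited table Il6ra (log2 fold change -0.98, adjusted p = 0.00485), Socs3 (-1.23, 0.00139) and Pim1 (-1.03, 0.0205) passed, and none of the other members did, where 4.29% of genes were called lower and 3.89% higher.

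The promoters of the called genes are shown because STAT3 is known to bind the palindrome TTCNNNGAA. Sequences are from RefSeq on GRCm38.p6, from 250 bases before to 50 bases after the transcript start, 5′ to 3′ on the gene's strand, and capitals mark the TTCNNNGAA match. They lie at chr11:117969317-117969616 on the minus strand for Socs3, chr3:89913147-89913446 on the minus strand for Il6ra and chr17:29490535-29490834 on the plus strand for Pim1.
Socs3: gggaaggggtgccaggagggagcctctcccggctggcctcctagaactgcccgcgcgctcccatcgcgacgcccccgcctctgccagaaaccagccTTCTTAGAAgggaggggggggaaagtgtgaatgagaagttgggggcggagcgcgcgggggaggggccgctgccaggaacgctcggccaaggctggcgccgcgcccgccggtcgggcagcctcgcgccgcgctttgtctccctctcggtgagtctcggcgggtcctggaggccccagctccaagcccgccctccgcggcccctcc
Il6ra: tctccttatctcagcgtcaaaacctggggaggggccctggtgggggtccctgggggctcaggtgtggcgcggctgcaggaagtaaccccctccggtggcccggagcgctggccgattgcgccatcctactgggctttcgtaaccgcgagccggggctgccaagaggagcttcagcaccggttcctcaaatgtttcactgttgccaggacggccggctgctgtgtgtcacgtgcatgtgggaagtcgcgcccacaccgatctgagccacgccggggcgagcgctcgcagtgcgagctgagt
Pim1: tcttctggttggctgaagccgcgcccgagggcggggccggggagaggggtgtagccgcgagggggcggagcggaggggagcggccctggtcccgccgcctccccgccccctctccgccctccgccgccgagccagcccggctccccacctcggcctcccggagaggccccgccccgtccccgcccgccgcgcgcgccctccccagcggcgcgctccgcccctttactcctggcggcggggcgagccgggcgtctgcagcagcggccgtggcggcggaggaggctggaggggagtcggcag
All 10 members matched a RefSeq promoter, with 11 windows because Pim1 has 2 starts, and both strands were searched for TTCNNNGAA and for TGANTCA, the AP-1 motif, which do not overlap in any of them. The STAT motif was found in 1 member, Socs3, as TTCTTAGAA at -154 to -146, and 8.3% of 32851 mouse promoters of the same length hold it. The AP-1 motif was found in 1 member, Il6, as TGAGTCA at -249 to -243, and 7.81% of promoters hold it. A match is only a description of the letters in these windows.

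The last gene downstream, Ptpn11, was the only member with a positive log2 fold change. Ptpn11 (ENSMUSG00000043733, chromosome 5, 121130533 to 121191397, minus strand) had 132, 103 and 117 normalized counts in WT iGB6 replicates 1, 2 and 3, against 85.9, 104 and 104 in IgHMOG iGBGFP. The libraries overlapped narrowly, and the log2 fold change was 0.26 (SE 0.22, limma adjusted p = 0.511; 95% interval -0.23 to 0.74).

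**Figure D2:**
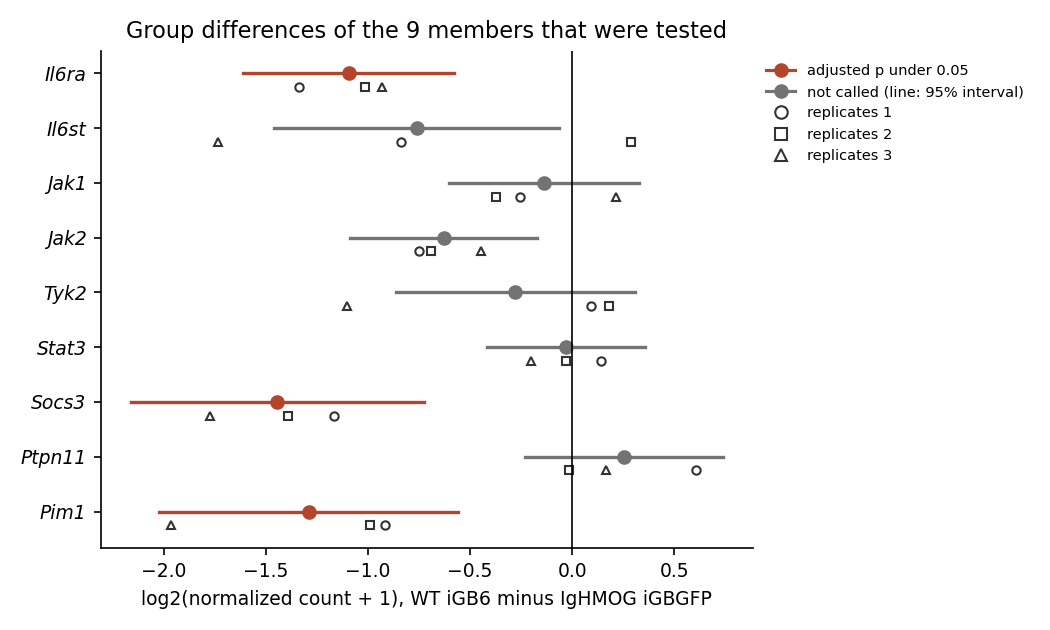
Log2 fold change of the 9 tested genes (x axis, WT iGB6 minus IgHMOG iGBGFP on the log2(normalized count + 1) scale) with limma's 95% interval, red where the adjusted p was under 0.05, and open symbols for the difference between libraries of the same replicate number. Il6ra, Socs3, Pim1 and Jak2 lie under 0 for all 3 replicate numbers, while Il6st, Jak1, Tyk2, Stat3 and Ptpn11 have symbols on both sides of 0.

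Counting Il6, 5 of the 10 genes were lower in WT iGB6 for all 3 replicate numbers (Il6, Il6ra, Jak2, Socs3 and Pim1), beside 23.5% of all tested genes, a share that does not cover genes under the filter. Among the 9 tested members, Jak2, Socs3 and Pim1 had no overlap of the groups with WT iGB6 lower, beside 11.4% of all tested genes. Female and male differences pointed the same way in the called genes. For Il6ra the difference on the log2 scale was -1.34 between the females and -0.97 between the male means, for Socs3 -1.17 and -1.58, and for Pim1 -0.92 and -1.48. An interaction of group and sex in limma was called for 0 of 9923 genes, with an adjusted p of 1 after rounding for each of the 9 tested members and 148 genes at an unadjusted p under 0.05, and with 1 female per group it was a weak test.

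Per kilobase of exon the genes spread widely in level. Stat3 had the highest mean, 218 ± 40.5 normalized counts per kb in WT iGB6 and 222 ± 29.0 in IgHMOG iGBGFP, above 88.8% of tested genes, and Jak1 followed at 166 ± 42.5 and 180 ± 30.8. Socs3 came next at 30.5 ± 14.8 in WT iGB6 and 83.3 ± 37.8 in IgHMOG iGBGFP, ahead of Tyk2 at 28.7 ± 8.67 and 34.0 ± 6.23 and Jak2 at 24.1 ± 3.16 and 37.5 ± 5.92. Under these lay Pim1 (12.4 ± 5.27 and 29.6 ± 7.38), Il6st (15.4 ± 8.14 and 25.7 ± 12.4), Il6ra (12.2 ± 5.24 and 25.4 ± 8.90) and Ptpn11 (15.7 ± 1.88 and 13.1 ± 1.41), all as normalized counts per kb in WT iGB6 and in IgHMOG iGBGFP. Il6 was last at 1.28 ± 0.26 and 4.46 ± 2.39. Stat3 was above Jak1, and Jak1 above Socs3, in 6 of 6 libraries, while Tyk2 and Jak2, Pim1 and Il6st, and Il6st and Il6ra changed places between libraries, with 3 of 6 in each order. Only Ptpn11 and Il6 had library ranges that did not meet among neighbours in this order.

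**Figure D3:**
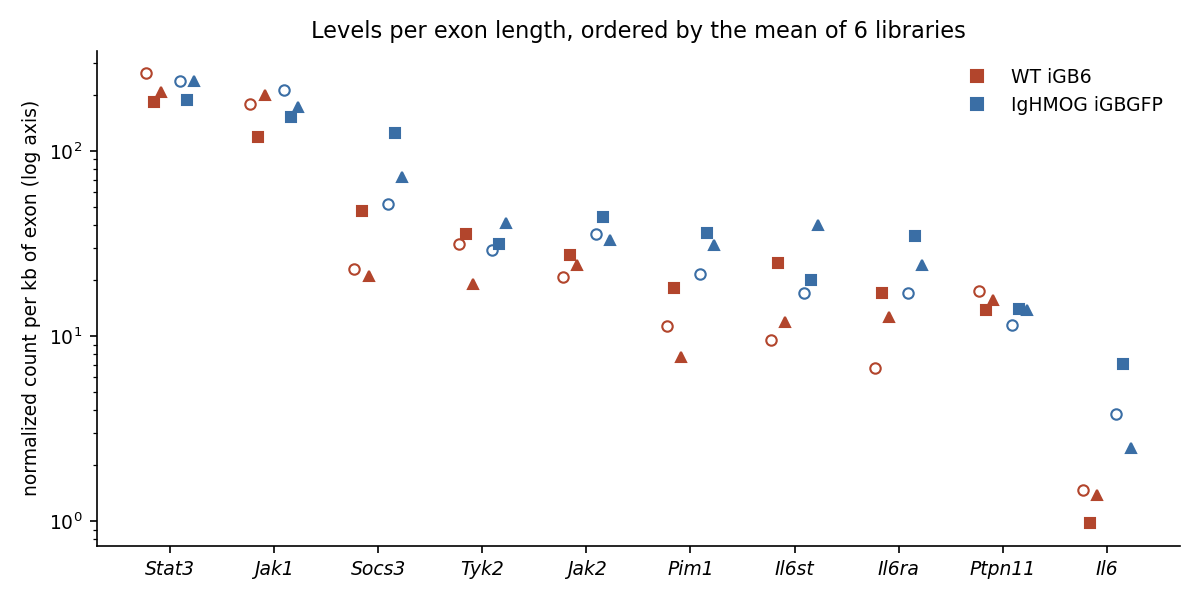
Normalized counts per kb of exon (y axis, log scale) of the 10 genes in each library, WT iGB6 in red left of IgHMOG iGBGFP in blue, ordered by the mean of the 6 libraries; circles are replicate 1, squares replicate 2 and triangles replicate 3. Stat3 and Jak1 stand above the other genes within each library and Il6 below them, and the 6 genes from Tyk2 to Ptpn11 overlap their neighbours.

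Socs3 and Pim1 were closer to each other in their pattern over the 6 libraries than either was to Il6ra. Likeness was taken as the root-mean-square difference of log2(normalized count + 1) after each gene's mean was removed, a measure that includes the group difference. From Socs3 to Pim1 this difference was 0.24, which placed Pim1 at rank 39 of 9922 genes by likeness to Socs3, while Stat3 was at rank 5590 with 0.98. From Il6ra the difference was 0.36 to Socs3 (rank 250) and 0.44 to Pim1 (rank 551), and Jak2, which was not called, lay between them at 0.43 (rank 516). The 3 genes most like Socs3 were Klf2, a Krüppel-like transcription factor gene, at 0.04, Arrdc4 at 0.11 and Emilin2 at 0.11. Klf2 was called lower (80.1 and 230 normalized counts on average in WT iGB6 and IgHMOG iGBGFP; limma adjusted p = 0.0303), as was Emilin2 (456 and 1055; 0.0456), but not Arrdc4 (27.7 and 68.3; 0.0768). Nearest to Pim1 were Rara, the retinoic acid receptor alpha gene, at 0.08, Arl13b at 0.09 and Tspan13 at 0.10, all called lower (adjusted p = 0.0378, 0.0446 and 0.0174 in limma). Nearest to Il6ra were Kcnj2 at 0.13, Man1a at 0.16 and Mef2d at 0.17, none of which was called (limma adjusted p = 0.119, 0.117 and 0.0679). Their mean normalized counts were 9.03, 13.7 and 24.9 in WT iGB6 and 20.0, 29.5 and 54.7 in IgHMOG iGBGFP. Counts this low carry a wide counting error, so their likeness to Il6ra is uncertain. Every called gene here lost its call without IgHMOG iGBGFP replicate 2 (adjusted p = 0.155 for Tspan13 to 0.247 for Emilin2).

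**Figure D4:**
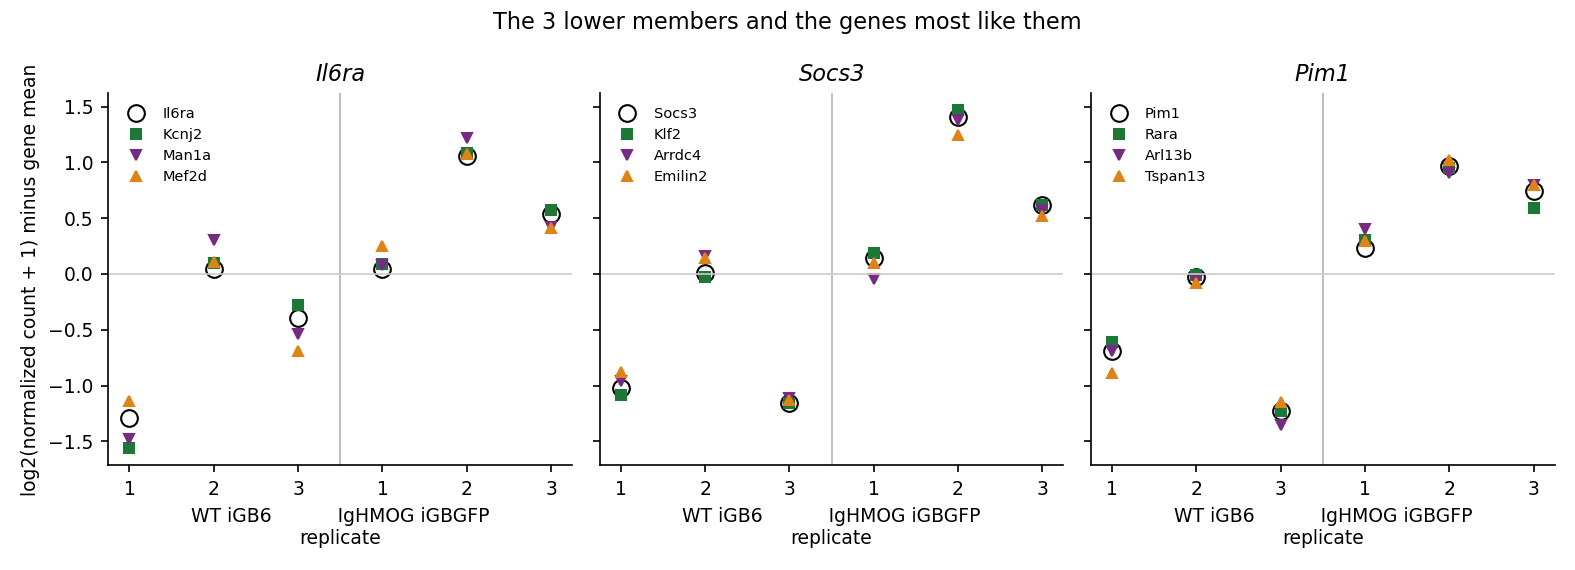
Log2(normalized count + 1) minus the gene's mean (y axis) in each library (x axis, WT iGB6 left and IgHMOG iGBGFP right) for Il6ra, Socs3 and Pim1 (open circles) and the 3 tested genes nearest to each. In WT iGB6 replicate 2 is the highest for all 3 members, near the gene's mean, and in IgHMOG iGBGFP replicate 2 is the highest too.

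Immediate early and isolation stress genes, which tissue handling is known to induce, moved the same way as Il6ra, Socs3 and Pim1. This group of genes is named the immediate early list below. Over all tested genes, 3.37% were called lower and 2.75% higher. Of 17 tested genes of this list, 11 were called lower and 0 higher, with a median log2 fold change of -1.48, and they included Hspa1a (-2.43, SE 0.32, limma adjusted p = 0.00716; a near-identical copy, Hspa1b, makes its count uncertain), Junb (-1.44, SE 0.21, 0.0108), Atf3 (-1.48, SE 0.29, 0.022) and Egr2 (-1.80, SE 0.36, 0.0242). The gene with the highest count, Zfp36, was at -0.85 (SE 0.24, limma adjusted p = 0.0614). Summed over the list, normalized counts were 20955, 34585 and 19613 in WT iGB6 replicates 1, 2 and 3, against 43448, 68840 and 44701 in IgHMOG iGBGFP. The groups did not overlap in this sum, and replicate 2 was the highest in each, as it was for Il6ra, Socs3 and Pim1. The part of such induction in the fall of Il6ra, Socs3 and Pim1 was not tested.

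Around the 10 genes, most of the route was not called. Of 5 tested genes of IL-6 family ligands and receptors, 0 were called by limma, edgeR or DESeq2, 0 had an unadjusted p under 0.05 in limma, and the median log2 fold change was 0.32. The highest count was that of Ebi3, a subunit of IL-27, with 937 ± 226 normalized counts in WT iGB6 and 761 ± 249 in IgHMOG iGBGFP (limma adjusted p = 0.393). The other 9 genes of that list were under the filter, and Lif and Ctf1 were listed at 0 in every library. Of 7 other JAK and STAT genes, 0 were called by limma, edgeR or DESeq2, 1 was higher and 1 lower at an unadjusted p under 0.05, and Stat6 had the highest count (1599 ± 407 and 1958 ± 127; log2 fold change -0.32, limma adjusted p = 0.383). Of 4 tested genes of receptor shedding, 0 were called by the main limma fit, edgeR or DESeq2, and 1 was higher at an unadjusted p under 0.05. Adam10, a protease that cleaves IL-6R, was at 1048 ± 96.6 in WT iGB6 and 697 ± 131 in IgHMOG iGBGFP without overlap (log2 fold change 0.60, limma adjusted p = 0.0844). The share of all tested genes with no overlap and WT iGB6 higher was not taken. Adam10 was called higher in limma with replicate number as a block (adjusted p = 0.0465) or library weights (0.0219).

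Among 16 tested receptors that use JAK1, JAK2 or TYK2, 1 rose and 2 fell. Beside these and the other limma counts of this paragraph, 2.75% of all tested genes were called higher and 3.37% lower. Il21r, the receptor of interleukin 21, rose to 92.7 ± 32.8 normalized counts in WT iGB6, against 28.5 ± 4.998 in IgHMOG iGBGFP (log2 fold change 1.63, SE 0.31, limma adjusted p = 0.0195). Il10ra, the alpha chain of the interleukin 10 receptor, whose signal also runs through STAT3, fell to 226 ± 113, against 498 ± 191 (-1.16, SE 0.27, 0.036). Ifngr2, a chain of the interferon gamma receptor, fell to 107 ± 5.98, against 206 ± 54.4 (-0.91, SE 0.22, 0.0409). Csf3r, the G-CSF receptor of neutrophils, was at 6446 ± 3335 and 13002 ± 2702 without passing (-1.12, SE 0.33, limma adjusted p = 0.072). Csf3r passed with DESeq2 (adjusted p = 0.0151), in the authors' deposited table (0.0157), with no filter (0.00936) or library weights (0.0468), and without WT iGB6 replicate 2 (0.00126), but not with edgeR (0.094). In each of the settings where Csf3r passed, 4 receptors of the list were called lower, with edgeR 2 were, and 0 were without the sex term or in males alone. Of 16 negative regulators, Socs6 alone was called, lower (-0.89, SE 0.23, limma adjusted p = 0.0467), and Ptprc, the phosphatase CD45, was at -0.18 (limma adjusted p = 0.623). Of 19 genes of the SHP2, RAS-MAP kinase and PI3-kinase branch, 0 rose and 1 fell in limma (background 3.37% lower), with a median log2 fold change of -0.26. In this branch edgeR called 1 lower (background 3.55%) and DESeq2 called 3 lower (5.33%). Over all alternatives 0 to 4 were called lower and 0 to 1 higher.

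Known STAT3 target genes went in both directions. Of 26 tested, 2 rose and 5 fell, beside 2.75% of all tested genes called higher and 3.37% lower, with a median log2 fold change of -0.27. Saa3, an acute-phase serum amyloid gene, rose (5.53, SE 0.48, limma adjusted p = 0.00157) and so did Birc5, which encodes survivin (1.06, SE 0.23, 0.0327). The log2 fold change of Saa3 was 5.30 with DESeq2 on recovered reads and 2.41 in the authors' deposited table. Junb and Mcl1, a survival gene of the Bcl2 family, fell (Mcl1 -1.19, SE 0.27, limma adjusted p = 0.0339), and of the 5 that fell, Junb and Fos also stand in the immediate early list. S100a8, the member with the highest count, was at 0.51 (SE 0.38, limma adjusted p = 0.444). Among the called genes given with a fold change in the lists around the route and in the immediate early list, all but Saa3 lost their call without IgHMOG iGBGFP replicate 2 (adjusted p = 0.0938 for Junb and Hspa1a to 0.206 for Mcl1).

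**Figure D5:**
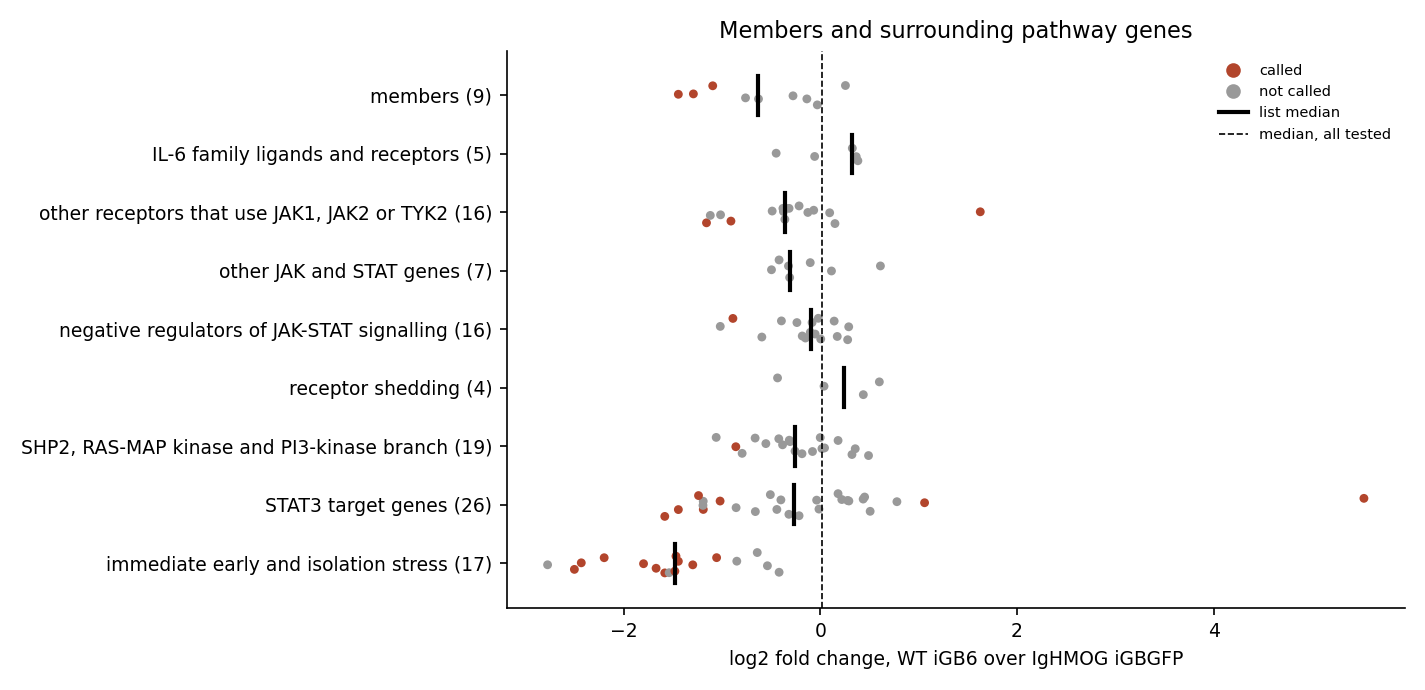
Log2 fold change (x axis, WT iGB6 minus IgHMOG iGBGFP) of every tested gene of the 10 members and of 8 lists around them, with the number tested in brackets, red for called genes, grey for others, a black bar for each list's median and a dashed line for the median of all tested genes (0.02). The immediate early list lies wholly under 0, and Saa3 stands far to the right among STAT3 target genes.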

How the data were processed

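Libraries of bulk RNA from sorted CD11b+ splenocytes of 6 mice were analysed, 3 per group, grouped by the sample titles. Per the submitters' processing notes, FastQC 0.74, cutadapt 4.4, STAR 2.7.10b, featureCounts 2.0.3 and DESeq2 2.11.40.7 were used with GRCm38 and mm10; which step used which, the annotation and the strand setting are not stated there. Per the labels' protocols, cDNA was amplified without molecular identifiers, so counting errors are lower limits. The deposited signal values are normalized counts, made from featureCounts output per the file headers: the authors divided reads by 1 size factor per library, and dividing by the smallest value gave whole numbers for 100% of values within 0.001. The authors' deposited table gives log2 fold changes with standard errors, a Wald score, p-values and adjusted p-values; its columns have no header and were read from the values.

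Symbols, positions and exon lengths came from GENCODE M21 (GRCm38), matched for 42548 of 43432 genes. Limma 3.58.1 in R 4.3.3 (variance trend, group and sex, pseudocount 1, mean of at least 10) was tested on simulated data and was the main test, since the deposited values are not counts. EdgeR 4.0.16 (TMM) and DESeq2 1.42.0 on recovered reads were alternatives, each with the sex term; they called 254 and 422 genes higher and 352 and 529 lower, against 273 higher and 334 lower in limma. Log2 fold changes understate the change of low genes. Sex and replicate number 1 coincide.

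The members and lists were chosen with earlier results of these data known. Named are the members, from each list the called genes (at most 4, by smallest p) and the gene with the highest count, and the 3 tested genes most like each called member; Fos, Hspa1b, Itgam, Hdc, Cd79b and the listed-at-0 markers stand beside the lists they describe. List genes under the filter were not tested. The labels name a mouse for each library. Some genes that this rule picks are not reported here.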

Additional observations from a re-analysis of the deposited data

How the results depend on the processing

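Over 19 alternatives the number of members called lower was 0 without the sex term and 0 in males alone, 2 to 4 under the other settings that kept all libraries, and 0 to 4 when a library was left out; 0 members were called higher in any of them. Calls over all genes were 273 higher and 334 lower. They were 459 and 620 without a filter, 6 and 4 without the sex term, 731 and 712 with library weights, 422 and 529 with DESeq2, 410 and 452 in the authors' deposited table, and 62 and 72 in males alone. Leaving out a library gave 3 to 410 higher and 1 to 673 lower, with the fewest without IgHMOG iGBGFP replicate 2. With replicate number as a block, 3 members were called lower and 435 and 566 genes were called. The main test did not take the numbers as pairs. Deviations of same-numbered libraries correlated at 0.482, 0.350 and 0.0407 across genes for numbers 1, 2 and 3, and 4 of 6 libraries correlated best with their own number. These values do not show that the mice were unpaired.

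Stat3, Jak1 and Tyk2, none of them called, turned direction. The log2 fold change of Stat3 was 0.0068 with upper quartile scaling. With a library left out it was -0.117 to 0.091 for Stat3, above 0 without WT iGB6 replicate 2 or IgHMOG iGBGFP replicate 3. It was -0.371 to 0.0627 for Jak1, above 0 without WT iGB6 replicate 2, and -0.485 to 0.0336 for Tyk2, above 0 without WT iGB6 replicate 3. The difference of Il6 means was -7.72 normalized counts, and -10.1 to -4.50 with a library left out. STAT3 targets called lower numbered 0 to 8 over the alternatives, and immediate early and isolation stress genes 0 to 15. The causes were not tested. With 3 mice per group, 4 libraries left for males alone and 3 to 20 reads per library for Il6, small differences of low genes were not detectable.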

Other observations

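Some genes around the route that were not tested or not called still separated the groups, chosen here after their values were seen. Of all tested genes, 11.4% had no overlap with WT iGB6 lower, and the share with WT iGB6 higher was not taken. The 11.4% does not cover genes under the filter, such as Il27ra and Cebpb. Il27ra, the receptor of interleukin 27, was under the filter at 2.59 ± 0.49 normalized counts in WT iGB6 and 7.88 ± 1.39 in IgHMOG iGBGFP (SD, n = 3 each), without overlap. Cebpb, a transcription factor gene that IL-6 is known to induce, was also under the filter at 3.01 ± 1.81 and 8.26 ± 5.55, without overlap. Counts as low as those of Il27ra and Cebpb carry a wide counting error. Stat5b was at 450 ± 113 in WT iGB6 and 624 ± 60.5 in IgHMOG iGBGFP without overlap (log2 fold change -0.50, limma adjusted p = 0.183), and Akt1 at 268 ± 70.9 and 458 ± 64.2 (-0.80, 0.0596). Shc1, an adaptor of the RAS route, was higher in every WT iGB6 library, at 1198 ± 104 against 858 ± 131 in IgHMOG iGBGFP (log2 fold change 0.49, limma adjusted p = 0.0947).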
